A study of Drosophila melanogaster with 8 samples.

Results

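The report concerns 10 genes of the early mesoderm in Drosophila melanogaster embryos, chosen by gene symbol from the 15598 genes that every expression table lists: twi, sna, Mef2, tin, bap, htl, stumps, ths, pyr and how. All 10 were found, each with an FPKM value and its bounds in all 8 tables. FPKM is the number of sequenced fragments of a gene relative to the length of its transcript and to all mapped fragments of the library, so levels may be compared between genes. The study asked whether embryos whose mothers lacked NSUN2, an enzyme that methylates cytosines in RNA, progress through early development as wild-type embryos do. Maternal NSUN2 knockout embryos came from NSUN2-/- virgin females crossed with w1118 males and were collected at 0–0.5 h, 2–3 h and 4–5 h. Wild-type embryos came from w1118 females crossed with the same kind of males, at 0–0.5 h, 1–2 h, 2–3 h, 3–4 h and 4–5 h, and their strain label reads WIII8. All groups thus had w1118 fathers, and since Nsun2 lies on the X chromosome, sons of the mutant mothers carried only the mutant allele. The mutation was made with CRISPR/Cas9, and which of the mutant lines gave these embryos is not stated in the labels. Between 70 and 100 whole embryos were pooled for each collection, and polyadenylated RNA was sequenced strand by strand. In whole embryos, fewer cells of a type and less RNA per cell cannot be told apart.

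In the fly embryo the mesoderm forms from the ventral cells. The maternal Toll pathway carries the factor Dorsal into the ventral nuclei, where Dorsal turns on twist (twi) and snail (sna). Twist activates mesoderm genes and Snail represses genes of the neighbouring tissue. Among the genes downstream are Mef2, a muscle differentiation factor, tinman (tin), which is needed for heart and dorsal mesoderm, and bagpipe (bap), which is needed for gut muscle. After the ventral cells have folded inward they spread along the ectoderm, guided by FGF signalling. The ectoderm makes the ligands Thisbe (ths) and Pyramus (pyr), and the mesoderm makes the receptor Heartless (htl) and its adaptor Stumps (also called Dof). Held out wings (how) encodes an RNA-binding protein of mesoderm, muscle and tendon cells whose mRNA the mother also supplies.

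The members lie on 3 chromosome arms of the BDGP5 genome that the tables use. On 2R lie twi (FBgn0003900, 18933631 to 18935849), Mef2 (FBgn0011656, 5801001 to 5846350), pyr (FBgn0033649, 7599767 to 7613850) and ths (FBgn0033652, 7658042 to 7701667). On 2L lies sna (FBgn0003448, 15476593 to 15478269). On 3R lie stumps (FBgn0020299, 10402941 to 10433804), htl (FBgn0010389, 13870936 to 13878706), tin (FBgn0004110, 17204701 to 17207692), bap (FBgn0004862, 17214605 to 17216171) and how (FBgn0264491, 17867914 to 17905043). Of these, 2 pairs are neighbours. The gap between tin and bap is 6912 bp and holds no other listed gene, and the gap between the ligand genes pyr and ths is 44191 bp and holds CG13193, which was listed at 0 in all 8 tables. The spans run from 1567 bp for bap, which has 2 exons in the BDGP6 annotation, to 45350 bp for Mef2, which has 11 annotated transcripts there. The span of ths holds the genes Tango3 and CG42493, neither of which exceeded 0.0827 FPKM in any table.

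Each condition is covered by 1 table, so differences could not be checked against replicates and p-values were not computed. Each value carries the interval that Cufflinks wrote beside it, which covers the uncertainty within a table and not the spread between collections. A gene was called higher or lower between tables when the intervals did not overlap and log2(FPKM + 1) differed by at least 1, and it counted as measured when either table had at least 1 FPKM. Between 6733 and 8148 genes per table reached 1 FPKM. Nsun2, the mutated gene, was at 0.128, 0.213 and 1.18 FPKM in maternal NSUN2 knockout embryos of 0–0.5 h, 2–3 h and 4–5 h, against 2.61, 2.71, 2.71, 12.7 and 6.59 FPKM in wild-type embryos at 0–0.5 h to 4–5 h, and its knockout intervals were the lower ones at each matched window. The scale of the tables also differed. Over all genes the median difference, knockout minus wild type, in log2(FPKM + 1) was 0.12 for the 0–0.5 h embryos, 0.43 for those of 2–3 h and -0.19 for those of 4–5 h. Scaling the tables by median-of-ratios would shift every gene by -0.17, -0.47 and 0.0044 at these windows on the log2 scale, equal summed FPKM would shift them by 0.06, 0.29 and -0.02, and upper-quartile scaling by -0.25, -0.76 and -0.05. The FPKM of 5 maternal transcripts (osk, nos, pgc, gcl and bcd) was summed. Their sum was 1373, 510.2 and 179 in knockout embryos of 0–0.5 h, 2–3 h and 4–5 h. It was 1343, 114 and 46.0 in wild-type embryos at the same windows, with none of the transcripts listed at 0. Of 9 eggshell genes, which follicle cells of the ovary make, 3 to 8 were listed at 0 in each table, and Cp15 was at 11.7 FPKM in knockout embryos at 2–3 h against 1.34 in wild-type embryos. The part of these differences in the results on the members was not tested.

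The wild-type table of 3–4 h stood apart from its neighbours. Muscle contraction genes, which encode the proteins of differentiated muscle fibres, were examined after their values were seen. Leaving out Tm1, which is also made outside muscle, 9 of them remained, and all 9 had their highest level in that table. Tm1 did not: it was at 383 FPKM there, against 703 FPKM in wild-type embryos at 2–3 h and 396 FPKM at 4–5 h. The summed FPKM of the 9 genes was 0.648, 3.35 and 1.27 in knockout embryos of 0–0.5 h, 2–3 h and 4–5 h, against 1.08, 0.355, 1.51, 154 and 10.8 in wild-type embryos of 0–0.5 h, 1–2 h, 2–3 h, 3–4 h and 4–5 h. The actin gene Act57B made up most of it, with 87.2 FPKM at 3–4 h and 5.99 FPKM at 4–5 h in wild-type embryos. Genes that every cell uses also had their highest sum there, 18079.5 FPKM, against 7281 to 12402 in the other wild-type tables. Results on the members that rest on the 3–4 h table are therefore given with and without it, and what sets it apart was not tested. Among the knockout tables Act57B was at 2.84 FPKM at 2–3 h and at or below 0.0837 FPKM at 0–0.5 h and 4–5 h.

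**Figure D1:**
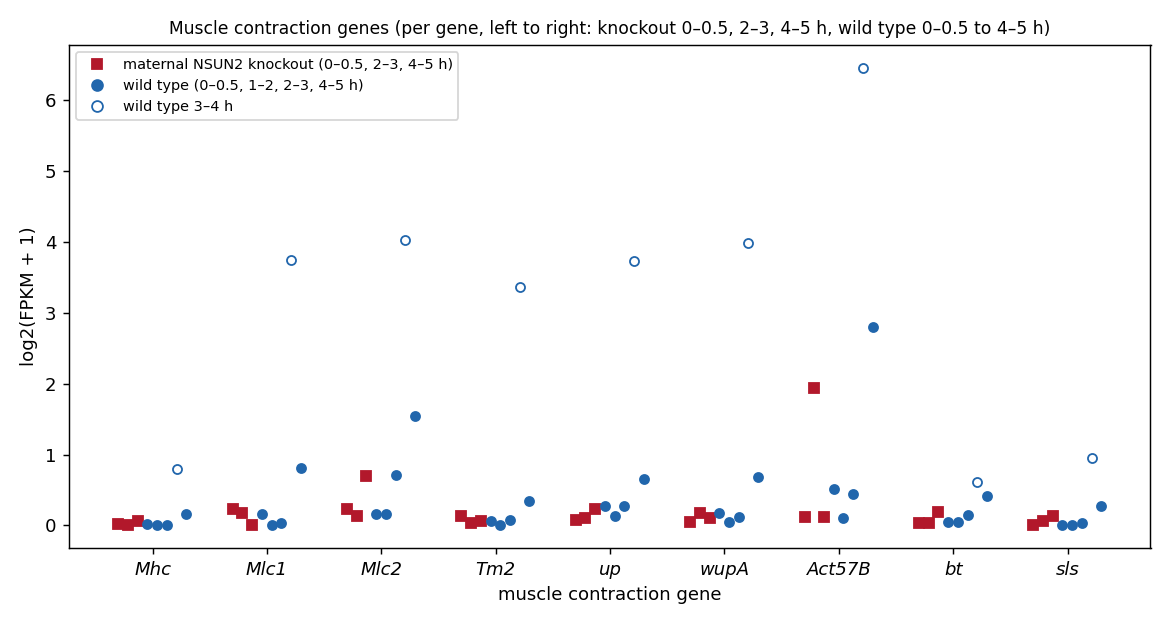
Levels of 9 muscle contraction genes, chosen after their values were seen and without Tm1, in each table, as log2(FPKM + 1) on the vertical axis and by gene on the horizontal axis. Red squares are maternal NSUN2 knockout tables, filled blue circles are wild-type tables and open blue circles are the wild-type table of 3–4 h, which is the highest of the 8 for every gene and reaches 87.2 FPKM for Act57B.

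Of the 10 mesoderm genes, 3 were called lower in maternal NSUN2 knockout embryos than in wild-type embryos at 2–3 h and 2 at 4–5 h, beside 10.2% and 7.31% of all measured genes. At 2–3 h the FGF receptor gene htl and the ligand gene ths were 18.1-fold and 20.3-fold lower in the knockout table, while twi stood at 0.666 of its wild-type level and sna was 1.93-fold lower. At 4–5 h all 10 knockout intervals lay below the wild-type intervals, as did those of 44.7% of all measured genes. The knockout levels of the members there ran from 1.15-fold lower for how to 5.67-fold lower for bap. At 0–0.5 h none of the members met the calling rule. Mef2 went the other way at 2–3 h, with a level 5.65-fold higher in knockout embryos, how was 1.21-fold higher with separate intervals and no call, and tin and bap were too low to be measured at that window.

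**Figure D2:**
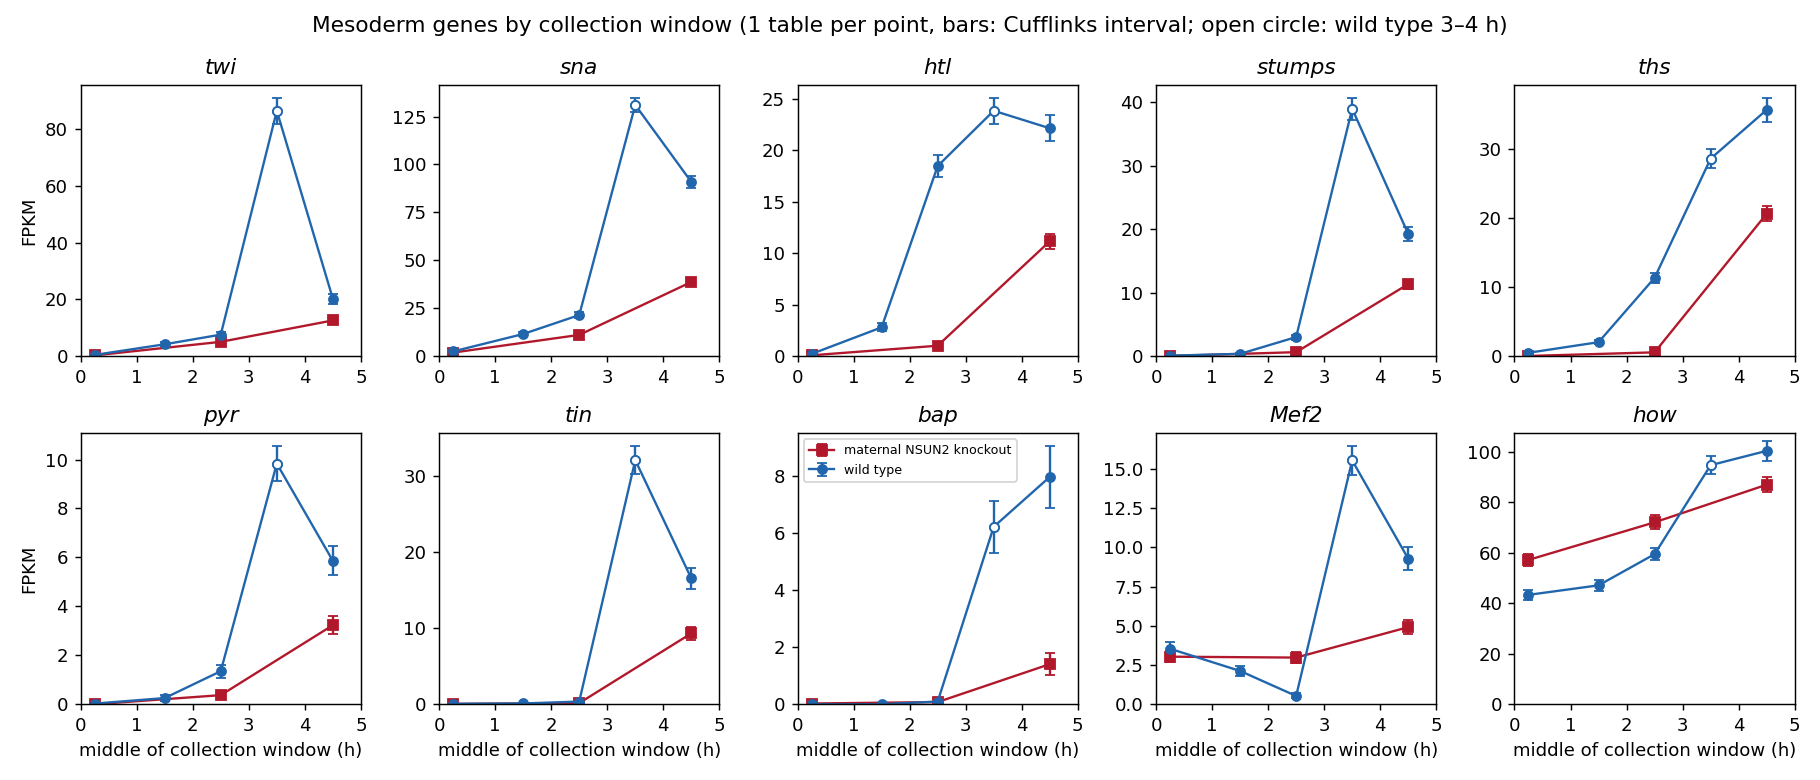
FPKM of each of the 10 genes (vertical axis, linear, a scale for each gene) against the middle of the collection window in hours. Red squares are maternal NSUN2 knockout embryos, blue circles are wild-type embryos, the open circle is the wild-type table of 3–4 h, and bars are Cufflinks intervals around 1 table per point. At 4–5 h every red square lies below its blue circle, and for 7 genes the wild-type course is highest at 3–4 h.

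Twist is the bHLH activator at the head of the mesoderm cascade. In knockout embryos twi was at 0.285, 5.06 and 12.6 FPKM at 0–0.5 h, 2–3 h and 4–5 h. In wild-type embryos it was at 0.456, 4.20, 7.60, 86.5 and 20.2 FPKM at 0–0.5 h, 1–2 h, 2–3 h, 3–4 h and 4–5 h. The knockout level was thus close to zero at the start and below wild type at the later matched windows, and the wild-type level at 3–4 h was above all others. The interval at 2–3 h was 4.41 to 5.71 FPKM in knockout embryos and 6.69 to 8.51 FPKM in wild-type embryos. The difference was -0.50 at 2–3 h and -0.64 at 4–5 h, short of the calling threshold at both windows. With equal summed FPKM the intervals at 2–3 h overlapped.

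Snail is the zinc finger repressor that keeps ectodermal genes off in the mesoderm. In knockout embryos sna was at 1.88, 11.1 and 38.7 FPKM at 0–0.5 h, 2–3 h and 4–5 h. Wild-type embryos had 2.48, 11.6, 21.5, 131 and 90.9 FPKM at 0–0.5 h, 1–2 h, 2–3 h, 3–4 h and 4–5 h. Apart from how it was the most abundant member in both genotypes at 4–5 h. The difference was -0.89 at 2–3 h, and at 4–5 h it was -1.21 and sna was called lower, with intervals of 36.9 to 40.5 FPKM in knockout embryos and 87.6 to 94.2 FPKM in wild-type embryos. As background, sna is also expressed in neural precursors later on.

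Heartless is the FGF receptor of the mesoderm. In knockout embryos htl was at 0.0875, 1.02 and 11.2 FPKM at 0–0.5 h, 2–3 h and 4–5 h, against 0.219, 2.80, 18.5, 23.8 and 22.1 FPKM in wild-type embryos of 0–0.5 h, 1–2 h, 2–3 h, 3–4 h and 4–5 h. In wild-type embryos htl had reached 77.5% of its highest level by 2–3 h, the largest share among the 10 members at that window. In knockout embryos it stood at 4.27% of the same level at 2–3 h. Without the 3–4 h table these shares were 83.4% in wild-type and 4.60% in knockout embryos. The knockout to wild-type ratio at 2–3 h was 0.0551, and the interval bounds allow 0.0416 to 0.0703. On the log2(FPKM + 1) scale the difference was -3.27, against -2.99 for ths, while with a pseudocount of 0.1 it was -4.05, against -4.12 for ths. At 4–5 h the ratio was 0.504 (0.447 to 0.569) and the difference of -0.93 was not called.

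Stumps is the adaptor protein that links the FGF receptor to the Ras pathway in the mesoderm. The stumps level was 0.0363, 0.636 and 11.4 FPKM in knockout embryos of 0–0.5 h, 2–3 h and 4–5 h, against 0.0921, 0.367, 3.02, 39.0 and 19.3 FPKM in wild-type embryos of 0–0.5 h, 1–2 h, 2–3 h, 3–4 h and 4–5 h. It was called lower in knockout embryos at 2–3 h, with a ratio of 0.211 (0.142 to 0.300) and a difference of -1.30. At 4–5 h the ratio was 0.590 and the difference -0.71. The call depends on the pseudocount, since stumps was not called with a pseudocount of 5. The ratio of htl to stumps in wild-type embryos was 6.11 (5.10 to 7.42) at 2–3 h, 0.611 (0.554 to 0.673) at 3–4 h and 1.15 (1.02 to 1.29) at 4–5 h.

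Thisbe is an FGF8-like ligand made in the neurogenic ectoderm, where Dorsal activates it, and Snail represses it in the mesoderm. In knockout embryos ths was at 0.0328, 0.559 and 20.6 FPKM at 0–0.5 h, 2–3 h and 4–5 h. In wild-type embryos it was at 0.493, 2.03, 11.3, 28.6 and 35.7 FPKM at 0–0.5 h, 1–2 h, 2–3 h, 3–4 h and 4–5 h. At 2–3 h the knockout level was close to that of the youngest wild-type embryos. The ratio at 2–3 h was 0.0493 (0.0352 to 0.0653), the difference was -2.99 and ths was called lower. Between 2–3 h and 4–5 h its level in knockout embryos increased 36.9-fold, against 3.14-fold in wild-type embryos over the same windows.

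Pyramus is the second ligand of Heartless. In knockout embryos pyr was listed at 0 at 0–0.5 h and was at 0.371 and 3.23 FPKM at 2–3 h and 4–5 h. Wild-type embryos had 0.0269, 0.252, 1.35, 9.83 and 5.86 FPKM at 0–0.5 h, 1–2 h, 2–3 h, 3–4 h and 4–5 h. It was less abundant than ths in every table that gave a value above 0 for both. The difference was -0.78 at 2–3 h and -0.70 at 4–5 h, with separate intervals and no call. The ratio of ths to pyr was 1.51 (0.853 to 2.84) in knockout embryos at 2–3 h and 8.40 (6.56 to 11.2) in wild-type embryos at that window, whereas at 4–5 h it was 6.39 (5.44 to 7.57) in knockout embryos and 6.09 (5.26 to 7.10) in wild-type embryos.

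Tinman and Bagpipe are homeodomain factors of the dorsal mesoderm, and bap acts downstream of tin. In knockout embryos tin was at 0.0437, 0.152 and 9.31 FPKM at 0–0.5 h, 2–3 h and 4–5 h, against 0.0551, 0.104, 0.350, 32.1 and 16.5 FPKM in wild-type embryos of 0–0.5 h, 1–2 h, 2–3 h, 3–4 h and 4–5 h. In knockout embryos bap was at 0.0256, 0.0764 and 1.40 FPKM at the same windows, and in wild-type embryos it was listed at 0 at 0–0.5 h and 1–2 h and was at 0.0947, 6.22 and 7.97 FPKM at 2–3 h, 3–4 h and 4–5 h. Neither gene reached 1 FPKM before 3–4 h in wild-type embryos or before 4–5 h in knockout embryos, so neither was measured at the earlier matched windows. By 4–5 h bap was called lower in knockout embryos, with a ratio of 0.176 (0.114 to 0.259) and a difference of -1.90, and tin was at a ratio of 0.564 (0.469 to 0.676) and a difference of -0.77. The ratio of tin to bap at 4–5 h was 6.63 (4.73 to 9.91) in knockout embryos and 2.07 (1.67 to 2.61) in wild-type embryos, and at 3–4 h it was 5.16 (4.24 to 6.38) in wild-type embryos.

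Mef2 is the MADS box factor of muscle differentiation. Its level was 3.03, 2.98 and 4.92 FPKM in knockout embryos of 0–0.5 h, 2–3 h and 4–5 h, against 3.54, 2.12, 0.527, 15.6 and 9.28 FPKM in wild-type embryos of 0–0.5 h, 1–2 h, 2–3 h, 3–4 h and 4–5 h. Wild-type embryos thus had a trough at 2–3 h, between an early level and a later one, and no knockout table showed such a trough. Knockout embryos were not collected at 1–2 h or 3–4 h, so a trough at another time is not covered. At 2–3 h the interval was 2.63 to 3.32 FPKM in knockout embryos and 0.366 to 0.687 FPKM in wild-type embryos. The difference of 1.38 made Mef2 the only member called higher in knockout embryos at a matched window, and it stayed between 1.04 and 1.53 under the other scalings. For the window of 4–5 h the difference was -0.80.

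The how gene was the most abundant member in all 8 tables except the wild-type table of 3–4 h, where sna was higher. Its level was 57.2, 72.0 and 86.9 FPKM in knockout embryos of 0–0.5 h, 2–3 h and 4–5 h, against 43.3, 47.1, 59.4, 94.7 and 100.3 FPKM in wild-type embryos of 0–0.5 h, 1–2 h, 2–3 h, 3–4 h and 4–5 h. It was thus present from the first window in both genotypes and varied less than any other member. The difference was 0.39 at 0–0.5 h, 0.27 at 2–3 h, where it turned to -0.19 with median-of-ratios scaling and to -0.48 with upper-quartile scaling, and -0.20 at 4–5 h. All 3 differences had separate intervals and none met the calling threshold.

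**Figure D3:**
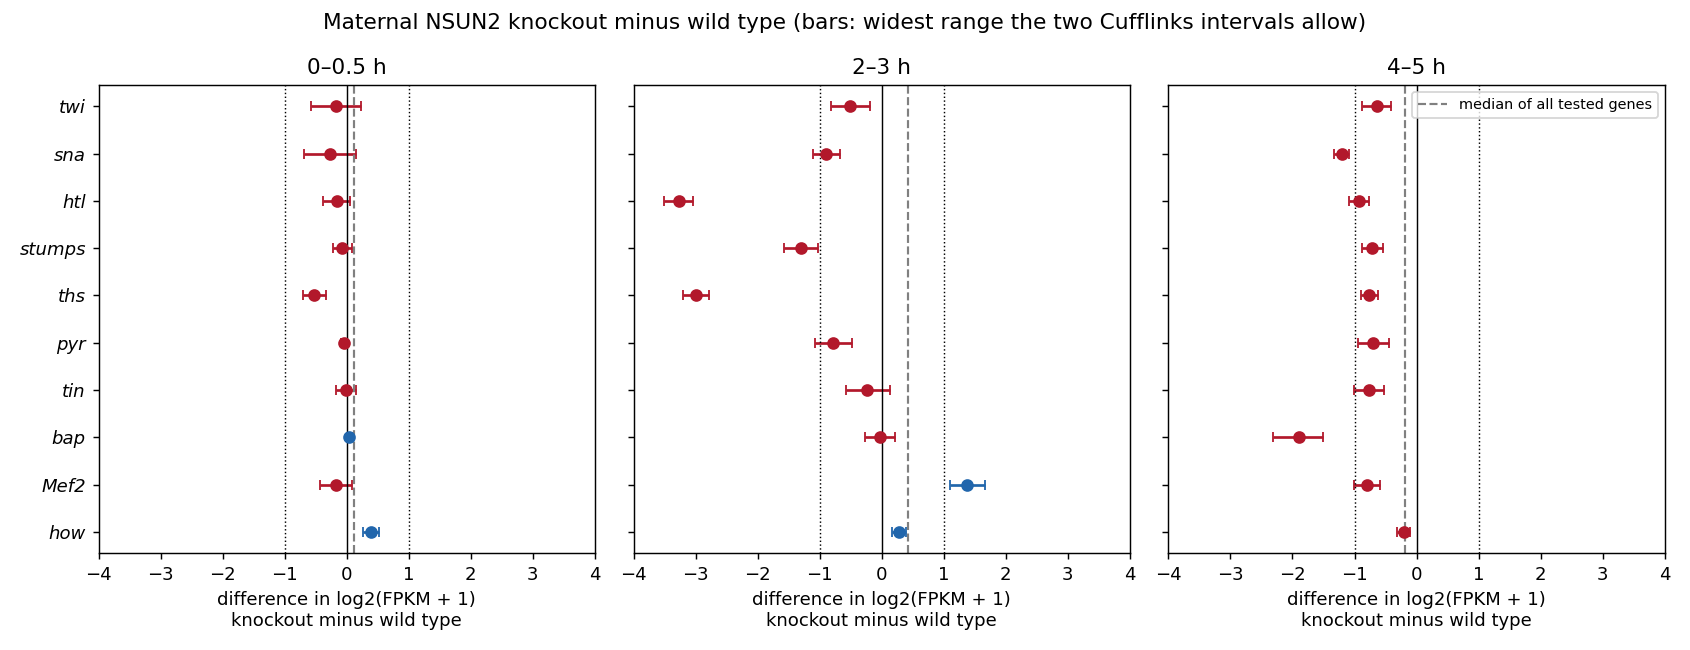
Difference in log2(FPKM + 1), maternal NSUN2 knockout minus wild type, for each gene at the 3 matched windows. Bars give the widest range that the Cufflinks intervals of both tables allow, the dashed line is the median over all measured genes and dotted lines mark the calling threshold of 1. Red points are below 0 and blue points above it. At 2–3 h htl and ths lie near -3, and at 4–5 h all 10 genes lie below 0.

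At the matched windows the members were set against all measured genes. At 0–0.5 h, 3 of the 10 members were measured and 0 were called lower or higher, against 1.68% of all measured genes called lower and 8.6% called higher. At 2–3 h, 8 members were measured, 3 were called lower (htl, ths and stumps) and 1 was called higher (Mef2), against 10.2% and 32.8% of all measured genes. In the 4–5 h embryos all 10 were measured, 2 were called lower (sna and bap) and 0 were called higher, against 7.31% and 11.4% of all measured genes. Without regard to the size of the difference, knockout intervals fell wholly below those of wild type for 6 members at 2–3 h, where 29.3% of all measured genes did so, and for 10 members at 4–5 h, where 44.7% did. The median difference over the 10 members was -0.64 at 2–3 h and -0.76 at 4–5 h, beside 0.43 over 7508 and -0.19 over 8083 measured genes. The member median at 2–3 h includes tin (-0.23) and bap (-0.024), which were not measured at that window, so the 2 medians follow unlike filters there. Scaling bears on the first of these windows, since median-of-ratios gave 5 members lower at 2–3 h and upper-quartile scaling gave 6. These 2 scalings also moved the median over all genes from 0.43 to 0.0084 and -0.26. The shares of all genes called lower under them are not given here, so the 2 counts have no background. The members htl, ths and stumps were called lower under all 3 scalings.

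The order in which the members appeared was described by the first wild-type table that reached 1 FPKM. By that rule Mef2, how and sna were present at 0–0.5 h, htl, ths and twi at 1–2 h, pyr and stumps at 2–3 h, and bap and tin at 3–4 h. In knockout embryos Mef2, how and sna were again present at 0–0.5 h, htl and twi by 2–3 h, and bap, pyr, stumps, ths and tin by 4–5 h. Whether a transcript at 0–0.5 h was maternal or made by the embryo was not tested. At 5 FPKM the count of members present at 2–3 h was 3 in knockout embryos (how, sna and twi) and 5 in wild-type embryos (how, sna, twi, htl and ths).

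A finer order came from the time at which a straight line between window middles first reached 50% of the highest wild-type level. It was 1.75 h for how, 2.08 h for htl, 2.88 h for ths, 2.90 h for sna, 2.92 h for pyr, 2.95 h for twi, 2.96 h for stumps, 2.98 h for Mef2, 2.99 h for tin and 3.13 h for bap. On this measure htl came before twi, and the times from ths to tin all fell within 1 collection window, so neighbours in this order cannot be told apart. Without the 3–4 h table the times were 1.75 h for how, 2.03 h for htl, 2.90 h for twi, 3.03 h for ths, 3.19 h for sna, 3.20 h for pyr, 3.31 h for stumps, 3.44 h for Mef2, 3.48 h for tin and 3.49 h for bap. In both orders how and htl were earliest and tin and bap were latest, while twi moved by 3 places. The how level was already at 43.2% of its highest at 0–0.5 h. That htl came before twi holds for the 50% share. At 1–2 h twi stood at 4.85% and htl at 11.8% of the highest wild-type level. Without the 3–4 h table these shares were 20.7% for twi and 12.7% for htl. The median over the members was 2.94 h with the table and 3.20 h without it. With it, 7 members were highest at 3–4 h and 3 (ths, bap and how) at 4–5 h, and without it all 10 were highest at 4–5 h, as all 10 were in knockout embryos.

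**Figure D4:**
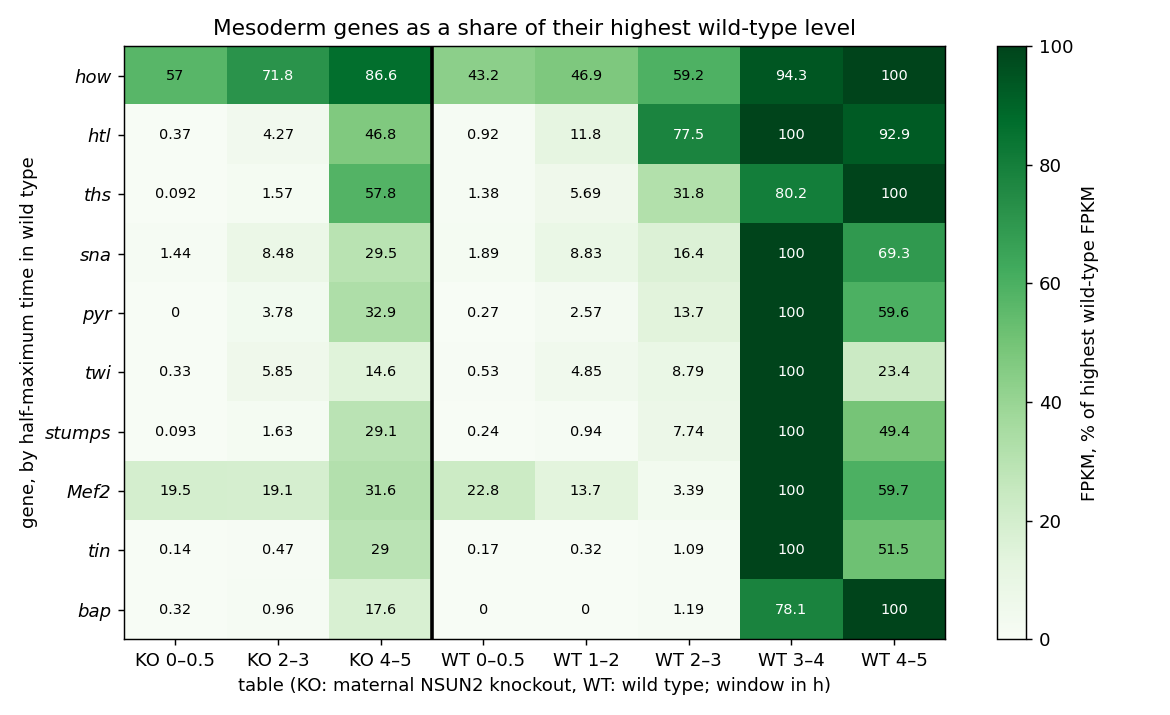
FPKM as a percentage of the highest wild-type FPKM of the gene, in 3 maternal NSUN2 knockout tables (left of the black line) and 5 wild-type tables (right), with genes ordered by their half-maximum time in wild-type embryos. For 7 genes, htl among them, the highest wild-type FPKM is that of 3–4 h. In the 2–3 h embryos htl is at 4.27% in knockout embryos and 77.5% in wild-type embryos, and without the 3–4 h table at 4.60% and 83.4%.

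Between successive windows in wild-type embryos, the members were called higher mainly up to 3–4 h. By 1–2 h 4 members were called higher (twi, sna, htl and ths) and 0 lower, beside 3.82% and 7.77% of all measured genes. By 2–3 h 3 were called higher (htl, stumps and ths) and 1 lower (Mef2), beside 6.97% and 15.9%. By 3–4 h 8 were called higher (all but htl and how) and 0 lower, beside 39.1% and 10.9%. The last step, to 4–5 h, gave 0 higher and 1 lower (twi), beside 0.324% and 7%. Without the 3–4 h table, the step from 2–3 h straight to 4–5 h gave 8 higher and 0 lower, beside 33.8% and 11.8%. In knockout embryos the step from 0–0.5 h to 2–3 h gave 2 higher (twi and sna) and 0 lower, beside 3.58% and 17.2%, whereas the same step in wild-type embryos gave 6 higher and 1 lower, beside 10.4% and 30.8%. The knockout step from 2–3 h to 4–5 h gave 8 higher (all but Mef2 and how) and 0 lower, beside 14.7% and 12.3%. For htl that last step was 2.59 in knockout embryos and 0.25 in wild-type embryos.

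The knockout tables were also set beside wild-type tables of other ages, a comparison chosen after the values were seen. For the window of 2–3 h the knockout levels of twi (5.06 FPKM) and sna (11.1 FPKM) had intervals that overlapped those of wild-type embryos at 1–2 h (4.20 and 11.6 FPKM), and so had tin, bap, stumps and pyr. The levels of htl (1.02 FPKM) and ths (0.559 FPKM) in the same knockout table lay below the wild-type intervals at 1–2 h (2.80 and 2.03 FPKM), with differences of -0.91 and -0.96, where 35.3% of all measured genes lay below. Mef2 and how lay above theirs, as did 42.8% of all measured genes. In this comparison 6 members were measured and 0 were called, since tin, bap, stumps and pyr were below 1 FPKM in both tables, beside 4.71% of all measured genes called lower and 18.8% called higher. With median-of-ratios or upper-quartile scaling htl and ths were called lower, with differences of -1.05 to -1.09. The shares of all measured genes under these scalings are not given here. By FPKM alone, without the intervals, the knockout level at 4–5 h lay between the wild-type levels of 2–3 h and 4–5 h for 9 members. The share of all measured genes that did so is not given here, so this count has no background. The exception was htl at 11.2 FPKM, against 18.5 FPKM in wild-type embryos at 2–3 h. Mef2, tin, bap and stumps were called higher in knockout embryos at 4–5 h than in wild-type embryos at 2–3 h and 0 lower, beside 25.7% and 3.62% of all measured genes. Against the wild-type table of 3–4 h, 8 members (all but ths and how) were called lower and 0 higher, beside 16.8% and 10% of all measured genes.

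The levels of FGF pathway genes relative to twi in the same table do not depend on how a table is scaled. These ratios were chosen after the values were seen. In the 2–3 h embryos the ratio of htl to twi was 0.201 (0.142 to 0.277) in knockout embryos and 2.43 (2.04 to 2.92) in wild-type embryos, and it was 0.667 (0.499 to 0.896) in wild-type embryos at 1–2 h. The ratio of ths to twi was 0.111 (0.0744 to 0.157) in knockout embryos at 2–3 h, 1.49 (1.25 to 1.81) in wild-type embryos at 2–3 h and 0.483 (0.361 to 0.650) in wild-type embryos at 1–2 h. Both ratios in knockout embryos at 2–3 h thus lay below those of wild-type embryos at 1–2 h and 2–3 h, with no overlap of the ranges. In the wild-type table of 3–4 h the ratio of htl to twi was 0.275 (0.248 to 0.306), which overlaps the knockout range at 2–3 h, as does the wide range at 0–0.5 h (0.160 to 1.40), and the ratio of ths to twi was 0.331 (0.299 to 0.366), which does not. The ratio of stumps to twi in knockout embryos at 2–3 h, 0.126 (0.0846 to 0.179), lay below that of wild-type embryos at 2–3 h, 0.397 (0.309 to 0.509), and overlapped that of wild-type embryos at 1–2 h, 0.0875 (0.0494 to 0.139). By 4–5 h the ranges of all 3 ratios overlapped between the genotypes, with htl to twi at 0.884 (0.761 to 1.03) in knockout embryos and 1.09 (0.951 to 1.26) in wild-type embryos.

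**Figure D5:**
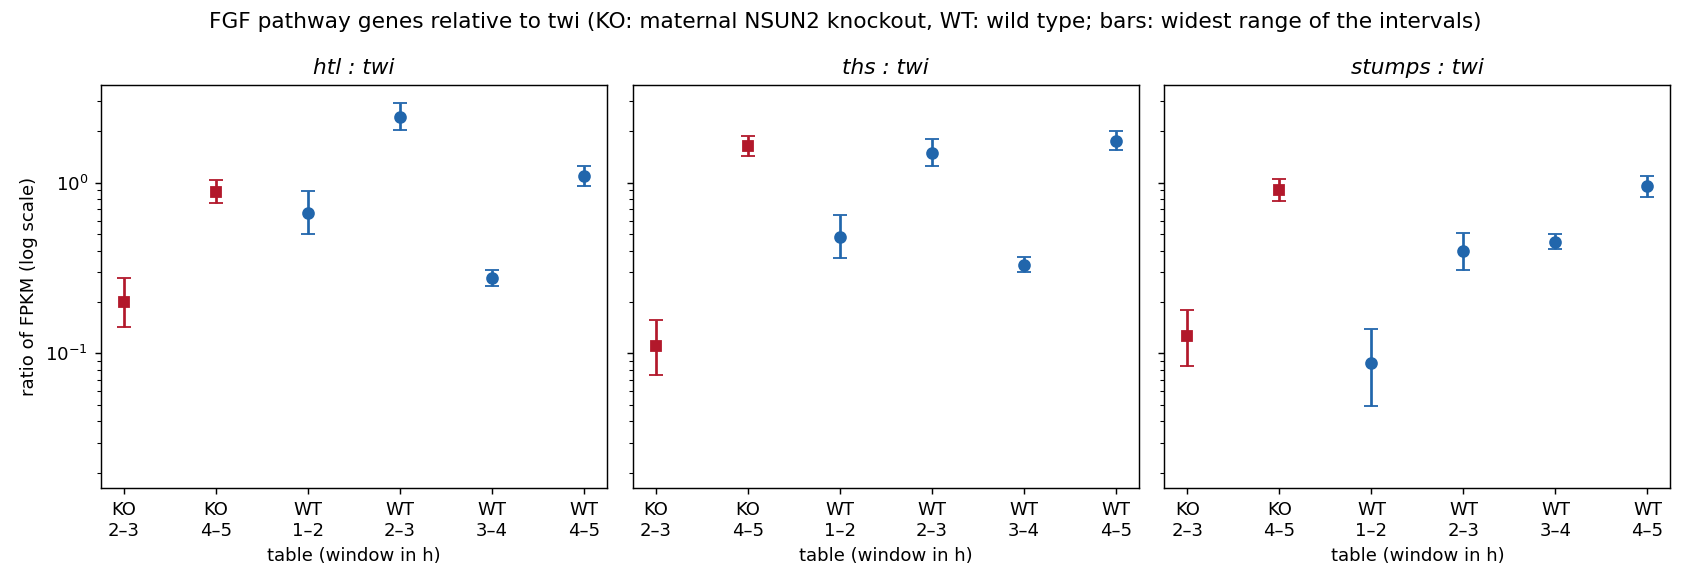
Ratio of the FPKM of htl, ths and stumps to that of twi (vertical axis, log scale) in 2 maternal NSUN2 knockout tables (red squares, left) and 4 wild-type tables (blue circles, right), with bars for the widest range that the intervals allow. In knockout embryos at 2–3 h the ratios for htl and ths, 0.201 and 0.111, are the lowest of the 6 tables, and the range for htl overlaps that of wild type at 3–4 h.

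Other genes of the same pathways were counted from lists chosen by role. The counts and medians cover every listed gene found, also those below 1 FPKM in both tables. The background shares cover measured genes only. Of 15 FGF and Ras/MAPK genes, 5 were called higher and 0 lower in knockout embryos at 2–3 h, beside 32.8% and 10.2% of all measured genes. The higher calls were thus near the share of all measured genes. At 4–5 h 2 were called higher and 2 lower, beside 11.4% and 7.31%. Their median difference was 0.30 at 2–3 h and -0.40 at 4–5 h. The largest at 2–3 h were sgl, which makes the sugar precursor of the heparan sulfate that FGFs bind, at 27.8 FPKM in knockout and 2.85 FPKM in wild-type embryos, and phl, the Raf kinase, at 66.4 FPKM in knockout and 18.8 FPKM in wild-type embryos. By 4–5 h they were csw, a phosphatase of the pathway, at 13.3 FPKM in knockout and 1.64 FPKM in wild-type embryos, and rl, the MAP kinase, at 162 FPKM in knockout and 52.1 FPKM in wild-type embryos. All 4 were present at 0–0.5 h in both genotypes, at 9.42 FPKM or more, unlike the FGF members. At that window sgl was already called higher, at 22.3 FPKM in knockout embryos, beside 8.6% of all measured genes. Not every gene of the list was present so early, since bnl and btl were at or below 0.0456 FPKM there. These were the 2 called lower at 4–5 h. They were then at 3.68 and 6.07 FPKM in knockout and 8.39 and 14.2 FPKM in wild-type embryos. The 2 genes of the list most abundant in wild-type embryos at 4–5 h, Ras85D and drk, were at 331 and 181 FPKM in knockout embryos against 274 and 202 FPKM in wild-type embryos at that window.

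Of 14 genes of mesoderm invagination and the early mesoderm 13 were found, and their median difference at 2–3 h was -0.55. At that window 5 were called lower and 1 higher, beside 10.2% and 32.8% of all measured genes. They include wntD, a feedback inhibitor of Dorsal, at 2.80 FPKM in knockout and 23.8 FPKM in wild-type embryos, and Mdr49, a transporter gene, at 1.54 FPKM in knockout and 10.7 FPKM in wild-type embryos. Mes4 was at 26.1 FPKM in knockout and 86.0 FPKM in wild-type embryos at that window. Already at 0–0.5 h wntD was called lower, beside 1.68% of all measured genes. It was then at 0.573 FPKM in knockout and 2.75 FPKM in wild-type embryos, a difference of -1.25. For the window of 4–5 h 2 of the 13 were called lower and 1 higher, beside 7.31% and 11.4%, with a median of -0.69. The largest were cta, the maternally supplied G protein subunit of the folding pathway, at 87.2 FPKM in knockout and 27.6 FPKM in wild-type embryos, and Traf4, at 30.2 FPKM in knockout and 65.9 FPKM in wild-type embryos.

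Of 14 later mesoderm transcription factors, 5 were called lower and 0 higher in knockout embryos at 2–3 h, beside 10.2% and 32.8% of all measured genes. At 4–5 h 4 were called lower and 0 higher, beside 7.31% and 11.4%. The median differences over all 14 were -0.14 and -0.95. At 2–3 h only 6 of the 14 reached 1 FPKM in wild-type embryos and 3 in knockout embryos. The median of -0.14 falls between pnr (-0.23) and Poxm (-0.055), which were too low to be measured. For the window of 2–3 h slp1, a segmental regulator also found in the ectoderm, was at 10.2 FPKM in knockout and 58.7 FPKM in wild-type embryos, and Doc1, a T-box gene of the dorsal side, was at 3.62 FPKM in knockout and 22.0 FPKM in wild-type embryos. In the 4–5 h embryos Him, which holds back muscle differentiation, was at 11.7 FPKM in knockout and 48.6 FPKM in wild-type embryos, and lmd, a factor of fusing myoblasts, was at 0.0411 FPKM in knockout and 2.32 FPKM in wild-type embryos. At 2–3 h lmd went the other way. It was at 0.693 FPKM (0.518 to 0.869) in knockout and 0.0264 FPKM (0 to 0.0637) in wild-type embryos, too low to be measured. Several of these genes are also expressed outside the mesoderm. Of 16 genes of muscle fusion and contraction, 1 was called higher and 1 lower at 2–3 h, beside 32.8% and 10.2% of all measured genes. At 4–5 h 0 were called higher and 2 lower, beside 11.4% and 7.31%. The fusion gene mbc was at 5.88 FPKM in knockout and 20.4 FPKM in wild-type embryos at 2–3 h, and rst, a fusion receptor gene, was at 2.54 FPKM in knockout and 6.59 FPKM in wild-type embryos at 4–5 h. Tm1, which is also made outside muscle, was the most abundant of the list, at 549 FPKM in knockout and 396 FPKM in wild-type embryos at 4–5 h.

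Genes that Snail represses and genes that act above twi were counted in the same way. Of 8 genes repressed by Snail, ths among them, 4 were called lower and 0 higher in knockout embryos at 2–3 h, beside 10.2% and 32.8% of all measured genes. None was called in either direction at 4–5 h, beside 7.31% and 11.4%, and the median difference there was -0.66. The neuroblast gene ind was at 0.951 FPKM in knockout and 19.2 FPKM in wild-type embryos at 2–3 h. Of 6 genes of the maternal Dorsal pathway, 4 were called higher and 0 lower at 2–3 h, beside 32.8% and 10.2%. At 4–5 h 5 were called higher and 0 lower, beside 11.4% and 7.31%. The medians at these windows were 1.66 and 1.44. Dorsal itself, dl, was at 13.6 FPKM in knockout and 0.889 FPKM in wild-type embryos at 2–3 h, and pll, a kinase of the Toll pathway, was at 54.0 FPKM in knockout and 6.68 FPKM in wild-type embryos. By 4–5 h spz, the ligand of Toll, was at 10.5 FPKM in knockout and 1.77 FPKM in wild-type embryos, and the abundant genes cact, the inhibitor that holds Dorsal in the cytoplasm, and Tl, the receptor, were at 530.4 and 128 FPKM in knockout against 242 and 40.8 FPKM in wild-type embryos. In wild-type embryos dl was at 31.6, 9.98 and 0.889 FPKM at 0–0.5 h, 1–2 h and 2–3 h, so the knockout level at 2–3 h lay between the first and the second of these. The knockout embryos had a higher level at the start, however. At 0–0.5 h dl was at 54.3 FPKM (51.7 to 56.8) in knockout embryos, against 29.7 to 33.4 FPKM in wild-type embryos. There pll was at 44.8 FPKM in knockout and 23.1 FPKM in wild-type embryos. These differences, 0.76 and 0.93, had separate intervals and were not called.

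The courses of the members over the 8 tables were compared by Pearson's r of log2(FPKM + 1), as a description, since the tables share genotypes, windows and scale. Over all 45 pairs r ran from 0.348 to 0.998 with a median of 0.875, and over the 28 pairs without how and Mef2 it ran from 0.744 to 0.998 with a median of 0.933. Among 7114 genes with at least 5 FPKM in some table, the gene most like twi was odd (r = 0.995), that most like sna was brk (0.997), and that most like tin was gsb (0.999). The course of ths was most like those of CG43317 (0.999) and ind (0.999), that of htl most like Npc2f (0.998), that of stumps most like mfas (0.999) and Doc2 (0.997) and that of pyr most like mfas (0.998). The course of bap was most like CG5773 (0.998), that of Mef2 most like CG3149 (0.982) and that of how most like Sep1 (0.995). Many genes had nearly the same course: between 26 genes for Mef2 and 354 genes for stumps had r above 0.95.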

How the data were processed

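Polyadenylated RNA of pooled embryos was sequenced from directional libraries. The authors used bcl2fastq (2.17), cutadapt (1.13), TopHat2 and Cufflinks with BDGP5, per the submitters' processing notes, and deposited gene FPKM values with Cufflinks intervals, 1 table for each of 8 conditions. By the study's methods, averages over replicates were used, and the tables do not say whether each is an average or a single library. The tables hold no fragment counts, so depth is unknown here. FPKM is relative to all mapped fragments, so large changes in abundant genes move the others.

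Values were compared on the log2 scale after adding a pseudocount of 1, without rescaling. A gene was measured at 1 FPKM or more in either table, and called at a difference of 1 with separate intervals. Fold values are FPKM ratios. The members and gene lists were chosen with earlier results of these data known. Named genes were the members, Nsun2, the 3 genes with the most similar course per member (the closest are printed), and, per role list, the 2 highest in wild-type embryos at 4–5 h and the 2 called genes with the largest difference at 2–3 h and 4–5 h. A few others were named after their values were seen. Alternatives covered the pseudocount, filter, threshold, scaling and the 3–4 h table. The steps were tested on simulated data. Python 3.11.15, numpy 2.4.6, pandas 2.3.3 and matplotlib 3.10.9 were used. Spike-in scaling and promoter motifs were not analysed here. BDGP6 annotation gave exon and transcript numbers only.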

Additional observations from a re-analysis of the deposited data

How the results depend on the processing

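No paired analysis was possible because each condition has 1 table and the labels give no replicate numbers, so no replicate could be left out either. The count of members called lower in maternal NSUN2 knockout embryos was 1 at 0–0.5 h with a pseudocount of 0.1, against 0 as reported. At 2–3 h it was 5 with median-of-ratios scaling, 6 with upper-quartile scaling and 5 at a threshold of 0.58, against 3. At 4–5 h it was 9 at a threshold of 0.58 and 0 at a threshold of 2, against 2. The shares of all measured genes called under these other settings are not given here, so the changed counts have no background. The median member difference at 2–3 h was -0.28 with a pseudocount of 5, -0.97 with median-of-ratios scaling and -1.20 with upper-quartile scaling, against -0.64. The median half-maximum time was 1.92 h at 10% of the highest level, 2.65 h at 25%, 3.20 h without the wild-type table of 3–4 h and 2.26 h on the log2 scale, against 2.94 h. At 1 FPKM in place of 5, 5 members were present in knockout embryos at 2–3 h, against 3. Smaller shifts at 2–3 h also changed calls: 2 members were called lower with a pseudocount of 5 or at a threshold of 2, without stumps, and 4 with a pseudocount of 0.1, with pyr added. The cause of these shifts was not tested beyond the settings themselves. Intervals under 1 FPKM are wide, so tin and bap at 2–3 h cannot be told apart between the genotypes at this precision.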

Other observations

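Markers of other embryonic cell types were summed for comparison with the mesoderm genes. The ectoderm marker pnr and the endoderm marker srp are also on the list of later mesoderm transcription factors. Their lower calls, srp at 2–3 h and pnr at 4–5 h, are thus counted in both places. The 6 ectoderm markers summed to 14.1, 13.4 and 222 FPKM in maternal NSUN2 knockout embryos of 0–0.5 h, 2–3 h and 4–5 h, against 41.3, 58.7 and 463 FPKM in wild-type embryos at the same windows. Of these, 4 were called lower in knockout embryos at 2–3 h and 4 at 4–5 h, beside 10.2% and 7.31% of all measured genes, and 2 (ac and l(1)sc, with differences of -1.37 and -1.44) were already called lower at 0–0.5 h, beside 1.68%. The proneural gene l(1)sc was the most abundant, at 8.36 FPKM in knockout and 38.0 FPKM in wild-type embryos at 2–3 h. The 4 endoderm markers summed to 3.40 FPKM in knockout and 18.5 FPKM in wild-type embryos at 2–3 h, and to 14.6 FPKM in knockout and 35.0 FPKM in wild-type embryos at 4–5 h, with 3 and 2 called lower beside the same shares. Among them srp, a GATA factor of fat body, blood and endoderm, was at 0.876 FPKM in knockout and 7.58 FPKM in wild-type embryos at 2–3 h.

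The 4 markers of yolk nuclei and amnioserosa that were found summed to 49.0 FPKM in knockout and 186 FPKM in wild-type embryos at 2–3 h, and to 71.1 FPKM in knockout and 139 FPKM in wild-type embryos at 4–5 h. The gap gene Kr was at 15.7 FPKM in knockout and 102 FPKM in wild-type embryos at 2–3 h. Lower levels at 2–3 h were thus also found for these marker lists, and a difference between the mesoderm genes and them was not tested.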
